A study of Mus musculus with 15 samples.

Results

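The comparison described here is between bone marrow-derived dendritic cells (BMDCs) of 2 Mysm1 genotypes after stimulation with lipopolysaccharide (LPS). It rests on 4 libraries titled Δ/DN LPS and 3 titled Δ/+ LPS, 7 of the 15 RNA sequencing libraries of the series, chosen by the genotype and treatment in their titles and by no measured value. All mice carried the CreERT2 transgene and received tamoxifen, which removed a floxed Mysm1 allele (Δ), so the controls also kept a single allele. The kept allele was wild type in Δ/+ and encoded a catalytically inactive MYSM1 in Δ/DN. More than 12 weeks passed between tamoxifen and the collection of marrow. Marrow was cultured for 9 days, and the cells were then held for 18 h with 10 ng/mL LPS. The other 8 libraries, 4 of each genotype, had no LPS (US). The labels do not say whether the cultures came from different mice, and the p-values then measure only the spread between these libraries, which may be technical.

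LPS is bound by CD14 and MD-2 and sensed by TLR4. TLR4 signals through the adaptors TIRAP and MYD88 to NF-kB and MAP kinases, which drive inflammatory cytokines, and through TRAM (Ticam2) and TRIF to IRF3 and type I interferon. A20 (Tnfaip3), tristetraprolin (Zfp36), DUSP1 and interleukin 10 are among the feedback inhibitors that limit the response. MYSM1 removes monoubiquitin from histone H2A, a mark written by Polycomb repressive complex 1, and is known for its part in blood cell development, where its loss is linked to p53 activity.

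Several facts about the libraries stand before the results. The series description joins the lettered mouse groups to the genotypes the other way round from the sample labels. Directions follow the sample labels, and each would be the opposite under the series description. Library names carry a prefix of 2 or 3. Δ/DN replicates 3 and 4 are the LPS libraries of set 3, and all 3 Δ/+ LPS libraries belong to set 2. Δ/DN LPS replicate 4 had 1166 CPM (counts scaled to a common library size) of Xist and no read of 4 Y-linked genes (Ddx3y, Kdm5d, Uty, Eif2s3y), while Xist was at most 0.0645 CPM in the other 6. Δ/DN LPS replicate 3 had 3.69 CPM of Ddx3y, against 68.4 to 105 CPM in the other Y-positive LPS libraries, with its other Y-linked genes in their range. The LPS libraries held 77313333 to 104041282 reads. Dendritic cell genes were present in each of them, with Itgax at 1052 to 1751 CPM and Cd74 at 4673 to 7739 CPM. Flt3, which marks Flt3-ligand-dependent dendritic cells, stood at 0.955 to 2.05 CPM.

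Mysm1, the targeted gene, had 43.7, 44.6 and 41.3 CPM in Δ/+ and 35.4, 34.9, 30.8 and 40.0 CPM in Δ/DN. The groups did not overlap, yet the difference was not called (log2 difference -0.28 ± 0.16, adjusted p = 0.299). Reads from the inactive allele still count as Mysm1, so the level does not test the genotype.

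Calls are genes with an adjusted p under 0.05 in edgeR's quasi-likelihood test across all 15 libraries, with Benjamini-Hochberg adjustment over 20865 genes. All adjusted p-values come from that test unless another is named. Levels in CPM are those of the LPS libraries in order of replicate. Log2 differences are Δ/DN minus Δ/+ with LPS, given ± their standard error, and "rose" and "fell" refer to Δ/DN. They allow for library set, so they can exceed the ratio of the group means, for example where the Δ/DN libraries of set 3 lay nearer the controls than those of set 2. The library set term is shared by LPS and US libraries, so the US libraries also move these differences. Δ/+ US replicate 4 is the only Δ/+ library of set 3. For Nudt17 (1.06 ± 0.27 with LPS) the Δ/+ US libraries had 11.9, 7.5, 9.4 and 2.5 CPM, with replicate 4 the lowest. In all, 1795 genes (8.6% of those tested) were called, 1121 (5.37%) of which rose and 674 (3.23%) fell. Of these, 449 rose and 210 fell by at least 1 log2 unit, and 75 rose and 75 fell by at least 2. The called genes of both directions lie on either side of a median of 0.01 over all genes. The libraries of both genotypes did not overlap for 992 of the genes that rose and 546 of those that fell. Over all genes tested, 12.6% had every Δ/DN LPS library above every Δ/+ LPS library and 12% had every one below. These shares, and those of 5.37% risen and 3.23% fallen, are the background for the counts of every gene list below.

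**Figure D1:**
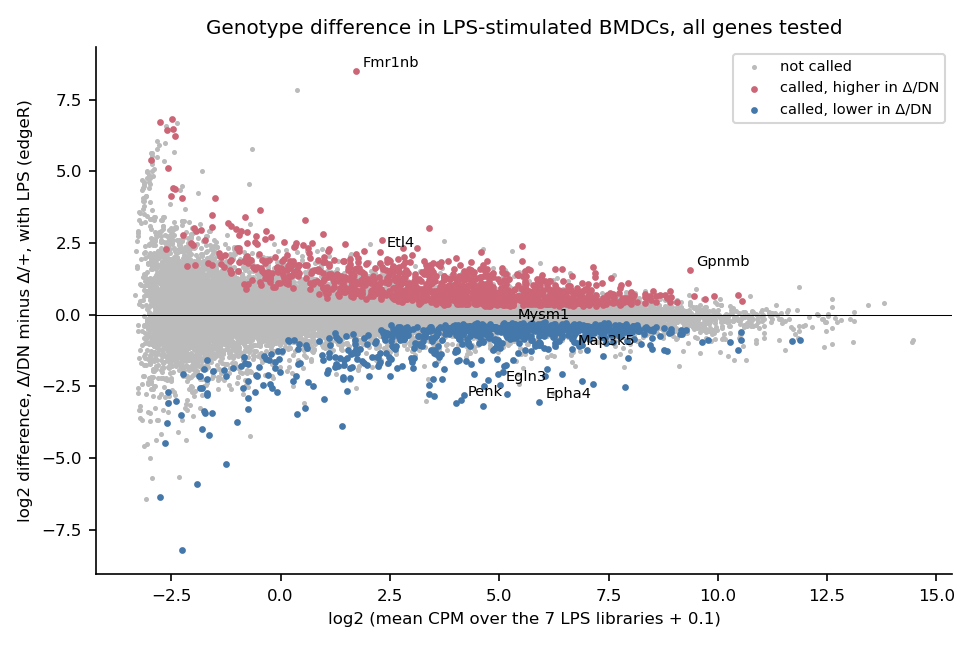
Log2 difference (Δ/DN minus Δ/+, with LPS, edgeR) of the 20865 genes tested against log2 of their mean CPM over the 7 LPS libraries plus 0.1, with called genes in colour. The 1121 genes that rose and the 674 that fell span the whole range of expression, and Mysm1 lies near 0.

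The number of calls rested on single libraries. It was 312 without Δ/+ LPS replicate 1, 90 without Δ/+ LPS replicate 2, 184 without Δ/DN LPS replicate 2 and 1178 without Δ/DN LPS replicate 4. It was 1463 to 2233 without any one of the other 3 LPS libraries, and 2062 without cultures 3 and 4 of Δ/DN, the library set 3 pair. Of the genes called, 51 that rose and 34 that fell were called in each of the 7 fits that left out 1 LPS library, and the genes described first below include many of these. On the first principal component of the LPS libraries (36.7% of the variance), the Δ/+ libraries lay between -60.0 and -33.6 and the Δ/DN libraries between 1.33 and 71.3.

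**Figure D2:**
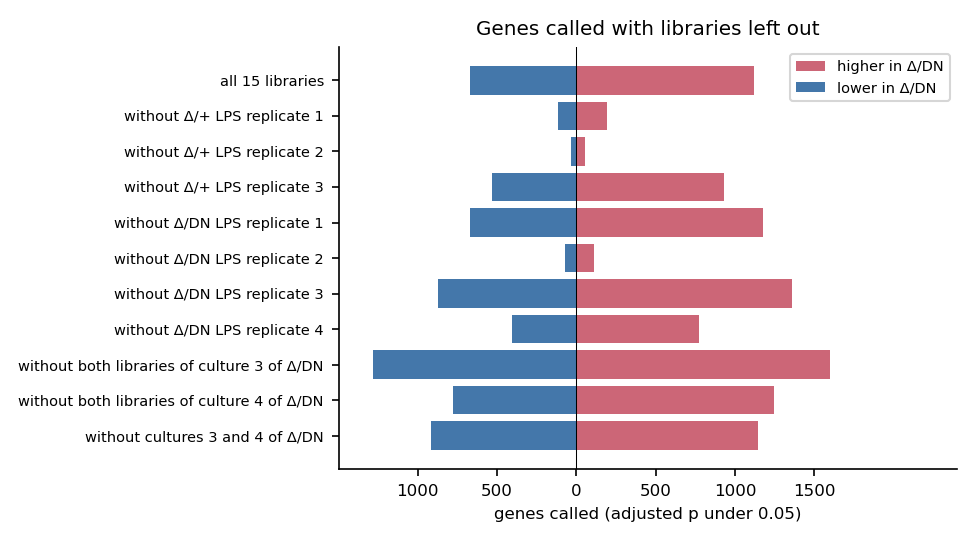
Number of genes called higher (right) or lower (left) in Δ/DN with LPS, in the fit of all 15 libraries and with libraries left out. The bars are shortest without Δ/+ LPS replicate 2 (53 higher and 37 lower) and longest without both libraries of culture 3 of Δ/DN (1597 and 1281).

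Among the genes that fell, the lipase gene Lipo3 had the smallest p. It stood at 21.7, 23.7 and 25 CPM in Δ/+ and 11, 9.23, 9.17 and 9.87 CPM in Δ/DN (log2 difference -1.30 ± 0.11, adjusted p = 0.000275), a narrow spread in both groups. Lipo2, of the same lipase family, fell by a like amount (-1.34 ± 0.19), and reads shared by near-identical family members cannot be told apart. Egln3, the oxygen-sensing prolyl hydroxylase PHD3 that marks HIF subunits for destruction, had 63, 57.6 and 50.7 CPM in Δ/+ and 14.1, 7.49, 18.6 and 13.9 CPM in Δ/DN (log2 difference -2.47 ± 0.24, adjusted p = 0.000781). Penk, the precursor of the enkephalin opioid peptides, had 34.1, 33.7 and 36.2 CPM in Δ/+ and 5.47, 6.39, 3.82 and 1.63 CPM in Δ/DN (log2 difference -2.98 ± 0.44, adjusted p = 0.00513). Every Δ/+ library was at least 5 times as high as every Δ/DN library for Penk. The ephrin receptor kinase gene Epha4 spread more widely in the controls, with 163, 120.3 and 81.6 CPM in Δ/+ and 16.2, 10.1, 12.1 and 19.1 CPM in Δ/DN (log2 difference -3.04 ± 0.48, adjusted p = 0.00774). Map3k5, which encodes the stress kinase ASK1, had 155, 156 and 129.8 CPM in Δ/+ and 72.3, 67.7, 76.8 and 47 CPM in Δ/DN (log2 difference -1.19 ± 0.15, adjusted p = 0.0039). The leptin receptor gene Lepr fell from 15.9, 17.8 and 9.16 to 4.02, 3.67, 3.45 and 2.65 CPM (log2 difference -1.84 ± 0.24, adjusted p = 0.0039). The transcription cofactor gene Zfp503 fell from 16.7, 26.2 and 15 to 4.62, 4.38, 6.87 and 4.43 CPM (log2 difference -2.24 ± 0.29, adjusted p = 0.0039). These 8 genes and Sipa1l2 (-1.38 ± 0.19) and D16Ertd472e (-0.70 ± 0.10) were called in each of the 7 fits with 1 LPS library left out.

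Genes with the largest fall were more variable. Tmem267 had 13.6, 105 and 25.5 CPM in the Δ/+ LPS libraries and 5.66, 3.46, 11.4 and 8.08 CPM in the Δ/DN LPS libraries (log2 difference -3.17 ± 0.70, adjusted p = 0.0232). Replicate 2 of Δ/+ stood far above the others. Marco, a scavenger receptor of macrophages, had 19.7, 11.1 and 33.2 CPM in Δ/+ and 3.79, 3.27, 1.81 and 6.01 CPM in Δ/DN (log2 difference -2.83 ± 0.52, adjusted p = 0.0115). Car4, a membrane carbonic anhydrase, had 503, 384 and 292 CPM in Δ/+ and 82.8, 66.3, 258 and 59.2 CPM in Δ/DN (log2 difference -2.54 ± 0.62, adjusted p = 0.0326). Its Δ/DN replicate 3 lay close to the lowest control. For Gfpt2, which starts the hexosamine pathway, the values were 23.5, 26.5 and 8.39 CPM in Δ/+ and 3.14, 2.13, 7.27 and 1.69 CPM in Δ/DN (log2 difference -2.77 ± 0.58, adjusted p = 0.0175). The adhesion receptor gene Adgrl2 (-2.31 ± 0.37) and Vasn, which encodes a TGF-beta-binding protein (-2.46 ± 0.64), also fell. In none of these genes did a Δ/DN library reach the lowest Δ/+ library. Marco alone of the 6 kept its call without Δ/+ replicate 2, and Adgrl2 alone without Δ/DN replicate 2. Without Δ/+ replicate 1, Car4, Gfpt2 and Vasn lost it. Vasn also lost it without Δ/+ replicate 3 or Δ/DN replicate 4, and Car4 without Δ/DN replicate 1. Tmem267 was not called in library set 2 alone, in the 7 LPS libraries alone or without cultures 3 and 4 of Δ/DN.

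Gpnmb, a lysosomal glycoprotein of macrophages and dendritic cells, was among the strongly raised genes, with 334, 322 and 289 CPM in Δ/+ and 935, 1134, 646 and 964 CPM in Δ/DN (log2 difference 1.57 ± 0.23, adjusted p = 0.00481). Dmrta2, a DM-domain transcription factor gene, had 3.59, 2.9 and 2.66 CPM in Δ/+ and 8.54, 9.01, 9.08 and 7.67 CPM in Δ/DN (log2 difference 1.63 ± 0.21, adjusted p = 0.0039). Its groups were tight and far apart. Kcp, which encodes a secreted modulator of BMP signalling, rose from 7.27, 5 and 4.61 to 12.5, 19.6, 17.3 and 17.5 CPM (log2 difference 1.75 ± 0.23, adjusted p = 0.0039). Etl4 rose from 2.55, 0.838 and 1.78 to 6.89, 9.68, 6.12 and 5.36 CPM (log2 difference 2.2 ± 0.31, adjusted p = 0.0039). Smaller but tight rises were those of Scly, the selenocysteine lyase (0.80 ± 0.11), Gtpbp1, a GTP-binding protein (0.59 ± 0.08), Kcnab2, a potassium channel subunit (0.87 ± 0.12), the p53-linked zinc finger gene Zfp385a (1.18 ± 0.17), Uvrag, an autophagy gene (0.73 ± 0.11), and Tmem104 (0.91 ± 0.11). Gtpbp1 stood at 41, 37.3 and 40.9 CPM in Δ/+ and 58.2, 63.1, 53.2 and 55.6 CPM in Δ/DN. Each gene in this paragraph was called in all 7 fits with 1 LPS library left out.

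Another set of raised genes spread widely over the Δ/DN libraries, with replicate 2 or 4 the highest in each gene. Siglece, an inhibitory sialic acid receptor, had 2.1, 2.19 and 2.08 CPM in Δ/+ and 5.59, 15, 5.32 and 15.8 CPM in Δ/DN (log2 difference 2.32 ± 0.53, adjusted p = 0.0231). Nedd4, a ubiquitin ligase, had 21.7, 12.2 and 19.7 CPM in Δ/+ and 54.8, 127, 27 and 59.2 CPM in Δ/DN (log2 difference 2.39 ± 0.45, adjusted p = 0.0141). Syne1, a nuclear envelope gene, had 18.1, 15.4 and 18.1 CPM in Δ/+ and 45.1, 79.5, 38.6 and 103 CPM in Δ/DN (log2 difference 1.89 ± 0.39, adjusted p = 0.0184). The levels of Δ/DN replicates 2 and 4 were about 2 times those of replicates 1 and 3. Ahrr, the repressor of the aryl hydrocarbon receptor, rose by 1.86 ± 0.39. Limd2 (2.08 ± 0.50), Asb2 (2.60 ± 0.67), the lysyl oxidase gene Loxl3 (1.89 ± 0.35) and the linker histone gene H1f10 (2.00 ± 0.34) rose too. Of the regulators of apoptosis, the inhibitor Bcl2 had 2.04, 1.34 and 4.04 CPM in Δ/+ and 9.29, 9.32, 4.87 and 8.35 CPM in Δ/DN (log2 difference 1.87 ± 0.40, adjusted p = 0.019). The BH3-only promoter of cell death Bmf had 4.05, 2.21 and 2.47 CPM in Δ/+ and 4.2, 18.8, 4.17 and 8.54 CPM in Δ/DN (log2 difference 1.96 ± 0.47, adjusted p = 0.0294). No Δ/DN library overlapped the controls for these genes. None of the 10 genes kept its call without Δ/+ replicate 2. Without Δ/DN replicate 2 only H1f10 kept it, and without Δ/+ replicate 1 only H1f10 and Nedd4. Siglece, Bmf and Asb2 also lost it without Δ/+ replicate 3, and Asb2 without Δ/DN replicate 4.

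Fmr1nb differed from the rest. It had 0, 0.0967 and 0 CPM in Δ/+ and 10.7, 11.8, 0.014 and 0 CPM in Δ/DN, and the high libraries are both Δ/DN libraries of set 2. Its fitted log2 difference (8.51 ± 0.89, adjusted p = 0.00173) rests on these high libraries and is not a bound. The Δ/DN libraries of set 3 lay within the range of the controls. Fmr1nb was called in library set 2 alone but not in the 7 LPS libraries alone with no library set term. The US libraries of the same cultures showed the same split, with 0.0436, 0.0477, 0 and 0.0116 CPM in the Δ/+ US libraries and 5.42, 8.88, 0 and 0 CPM in the Δ/DN US libraries.

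**Figure D3:**
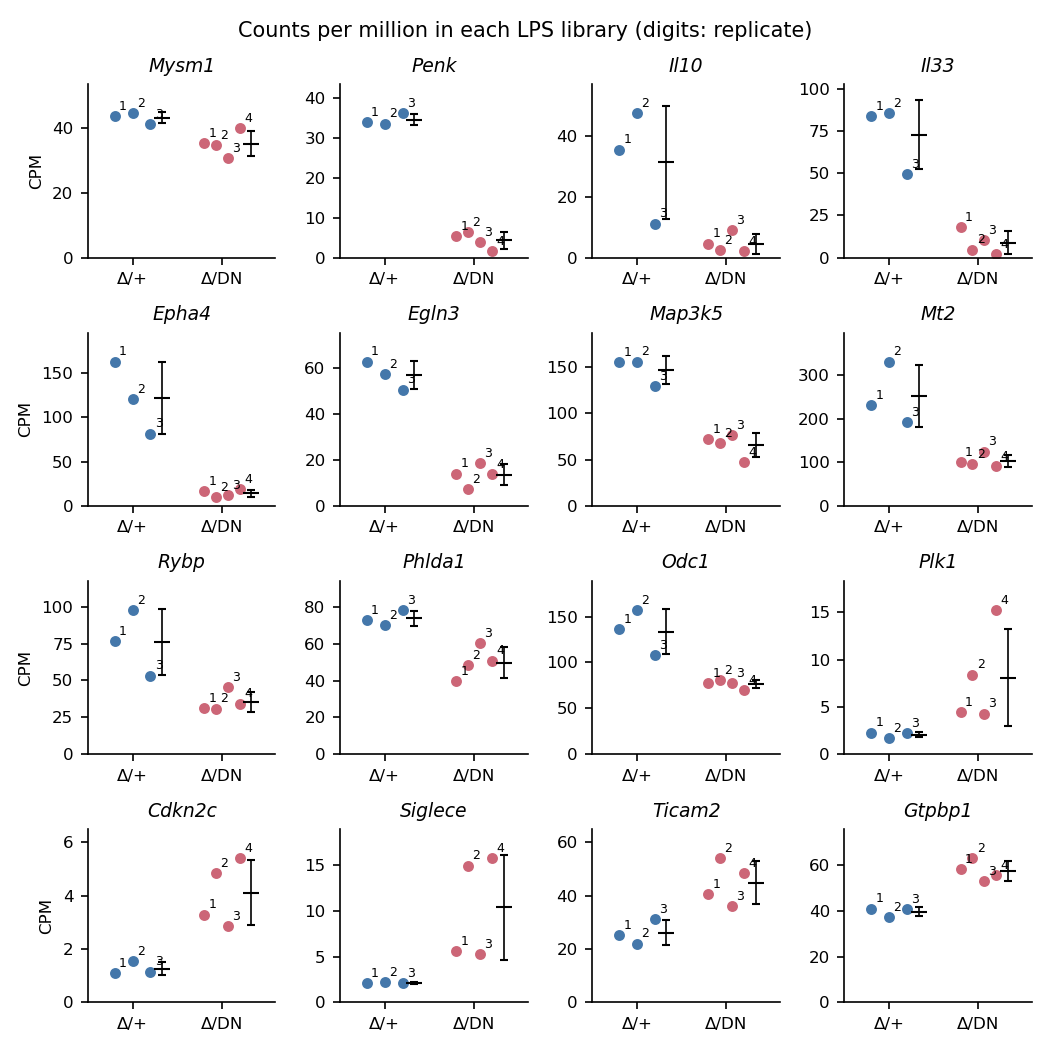
CPM of 16 genes in each of the 7 LPS libraries (points, numbered by replicate), with the mean and SD beside them. The genes from Penk to Odc1 are lower in every Δ/DN library than in every Δ/+ library, and those from Plk1 to Gtpbp1 are higher.

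Turning to the response to LPS itself, most genes of the sensing machinery were not called. Of 23 LPS receptor and TLR4 adaptor genes, 1 rose and 2 fell, with a median log2 difference of 0.01. Tlr4, named after its values were seen, had 106, 104 and 133 CPM in Δ/+ and 123, 128, 114 and 124 CPM in Δ/DN, with overlapping groups (log2 difference 0.01 ± 0.13, adjusted p = 0.983). Ticam2, the adaptor TRAM that links TLR4 to TRIF, had 25.1, 22 and 31.1 CPM in Δ/+ and 40.4, 54, 36 and 48.5 CPM in Δ/DN (log2 difference 0.88 ± 0.14, adjusted p = 0.0065). It was called in all 7 fits with 1 LPS library left out. Tirap, the adaptor that brings MYD88 to TLR4, fell slightly, from 26.9, 32.4 and 27 to 22.6, 22.7, 23.4 and 24.5 CPM (log2 difference -0.45 ± 0.12, adjusted p = 0.0367). Tab2, which carries the signal to the kinase TAK1, fell from 378, 402 and 359 to 289, 282, 321 and 219 CPM (log2 difference -0.45 ± 0.12, adjusted p = 0.0387). Neither of the genes that fell was called without Δ/+ replicate 1, Δ/+ replicate 2 or Δ/DN replicate 2. Ly96, which encodes MD-2, had 15.7, 18.7 and 15.2 CPM in Δ/+ and 13.8, 8.89, 12.3 and 8.08 CPM in Δ/DN (log2 difference -0.61 ± 0.20, adjusted p = 0.0702).

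None of 27 NF-kB and IRF transcription factor genes, a list that also holds their kinases, was called. At an unadjusted p under 0.05, edgeR placed 4 higher and 5 lower, DESeq2 called 1 higher and 2 lower, and limma voom called 0 higher and 1 lower. Ikbkb, the kinase that releases NF-kB, had 198, 202 and 198 CPM in Δ/+ and 151, 154, 181 and 116 CPM in Δ/DN (log2 difference -0.40 ± 0.12, adjusted p = 0.0566). Rela, the main activating NF-kB subunit, had 199.9, 209 and 188 CPM in Δ/+ and 173, 147, 183 and 143 CPM in Δ/DN (log2 difference -0.37 ± 0.13, adjusted p = 0.0799). Stat3, which transmits interleukin 10 and interleukin 6 signals, had 608, 683 and 601 CPM in Δ/+ and 504, 429, 502 and 290.4 CPM in Δ/DN (log2 difference -0.52 ± 0.18, adjusted p = 0.0806). In these 3 genes all Δ/DN libraries lay below all Δ/+ libraries, and Δ/DN replicate 4 was the lowest. Ikbkb was called lower without Δ/DN replicate 3, without Δ/DN replicate 4 and in library set 2 alone. Batf3, a factor of cross-presenting dendritic cells, lay the other way, with 4.13, 3.88 and 5.18 CPM in Δ/+ and 6.47, 7.78, 5.08 and 8.7 CPM in Δ/DN (log2 difference 0.69 ± 0.24, adjusted p = 0.0822) and overlapping groups.

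Of 29 genes for feedback inhibitors of TLR signalling, 7 fell and 0 rose (3.23% and 5.37% of all genes). Their median log2 difference was -0.22. At an unadjusted p under 0.05, 11 were lower and 2 higher. DESeq2 called 9 lower and 1 higher, and limma voom 6 and 0. Tle1, a co-repressor, had 9.37, 8.9 and 8.29 CPM in Δ/+ and 5.27, 3.4, 3.41 and 3.41 CPM in Δ/DN (log2 difference -1.20 ± 0.22, adjusted p = 0.00919). Il1r2, the decoy receptor for interleukin 1, had 54.1, 45.3 and 49.3 CPM in Δ/+ and 27.5, 33.2, 33.9 and 30.6 CPM in Δ/DN (log2 difference -0.74 ± 0.15, adjusted p = 0.0133). Tnfaip3 (A20) had 1924, 2276 and 1674 CPM in Δ/+ and 1201, 999.8, 1378 and 866 CPM in Δ/DN (log2 difference -0.88 ± 0.25, adjusted p = 0.0426). Il1rn, the interleukin 1 receptor antagonist, had 4544, 4983 and 4019 CPM in Δ/+ and 2773, 2482, 2645 and 1707 CPM in Δ/DN (log2 difference -0.90 ± 0.26, adjusted p = 0.0483). The phosphatase gene Dusp1 (-1.10 ± 0.29), the A20 partner gene Tnip2 (-0.40 ± 0.11) and the mRNA decay gene Zfp36 (-0.59 ± 0.17) were the others that fell. In Dusp1 a Δ/DN library (replicate 3, 80.9 CPM) lay above the lowest control (73.0 CPM). The count of fallen feedback genes was 1 without Δ/+ replicate 1, 0 without Δ/+ replicate 2, 3 without Δ/DN replicate 1, 1 without Δ/DN replicate 2 and 3 without Δ/DN replicate 4.

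Of 30 inflammatory cytokine genes tested, 4 fell and 1 rose (3.23% and 5.37% of all genes). Their median was -0.48, and 24 of the 30 had a negative log2 difference. Il10, an anti-inflammatory cytokine, had 35.6, 47.6 and 11.2 CPM in Δ/+ and 4.61, 2.4, 9.01 and 2.13 CPM in Δ/DN (log2 difference -3.08 ± 0.81, adjusted p = 0.0391). Il33, an alarmin of the interleukin 1 family, had 83.8, 85.5 and 49.4 CPM in Δ/+ and 18.2, 4.84, 10.5 and 2.29 CPM in Δ/DN (log2 difference -2.78 ± 0.67, adjusted p = 0.0317). Il1f6, which encodes interleukin 36 alpha, had 37.9, 42.3 and 28.7 CPM in Δ/+ and 9.18, 10.0, 11 and 9.95 CPM in Δ/DN (log2 difference -2.08 ± 0.35, adjusted p = 0.00824). Osm, oncostatin M, had 89.1, 90.8 and 115 CPM in Δ/+ and 68.9, 59.4, 62.3 and 49.2 CPM in Δ/DN (log2 difference -0.76 ± 0.17, adjusted p = 0.0181). Ltb, lymphotoxin beta, rose from a low level, with 0.75, 0.516 and 1.01 CPM in Δ/+ and 1.9, 4.6, 1.18 and 4.36 CPM in Δ/DN (log2 difference 2.31 ± 0.62, adjusted p = 0.0396). For comparison, 4 hallmark cytokines of stimulated dendritic cells, named after their values were seen, were not called. Tnf had 2631, 1748 and 3553 CPM in Δ/+ and 3546, 2678, 2754 and 2482 CPM in Δ/DN (0.07 ± 0.31), and Il6 had 2583, 2299 and 3153 CPM in Δ/+ and 2298, 1361, 2002 and 1109 CPM in Δ/DN (-0.62 ± 0.48). Il12b, the shared subunit of interleukins 12 and 23, had 2724, 1942 and 4252 CPM in Δ/+ and 5710.0, 5001, 3165 and 2973 CPM in Δ/DN (0.97 ± 0.31, adjusted p = 0.0679). Il23a, the other subunit of interleukin 23, had 99.8, 56.8 and 61 CPM in Δ/+ and 36, 21.9, 30.9 and 10.9 CPM in Δ/DN (-1.39 ± 0.40, adjusted p = 0.0512), and its groups did not overlap. Ltb lost its call without Δ/+ replicate 1, Δ/+ replicate 2, Δ/DN replicate 2 or Δ/DN replicate 4. The 4 fallen cytokine calls became 2 without Δ/+ replicate 1, 0 without Δ/+ replicate 2, 1 without Δ/DN replicate 2 and 7 without Δ/DN replicate 3.

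Of 24 chemokine genes 3 rose (5.37% of all genes), all of low or moderate level. The platelet chemokine genes Pf4 (42.9, 36.5 and 43 CPM in Δ/+ and 82, 108, 44 and 49.5 CPM in Δ/DN, log2 difference 1.26 ± 0.26) and Ppbp (1.96, 2.13 and 4.5 CPM in Δ/+ and 9.96, 44.5, 2.5 and 6.84 CPM in Δ/DN, log2 difference 3.04 ± 0.64) were highest in Δ/DN replicate 2. Cx3cl1, fractalkine, had 69.1, 43.8 and 65.5 CPM in Δ/+ and 84.8, 122, 68 and 64.9 CPM in Δ/DN (log2 difference 0.85 ± 0.23, adjusted p = 0.0412). Its receptor gene Cx3cr1, the only riser of 15 chemokine receptor genes, had 0.273, 0.0967 and 0.641 CPM in Δ/+ and 0.918, 3.7, 0.688 and 3.28 CPM in Δ/DN (log2 difference 3.32 ± 0.82, adjusted p = 0.0301). In Ppbp and Cx3cl1 the groups overlapped. None of these 4 genes was called without Δ/+ replicate 1, Δ/+ replicate 2 or Δ/DN replicate 2, and 2 chemokine receptor genes rose without Δ/+ replicate 3. The neutrophil-attracting chemokine gene Cxcl1 had 781, 987 and 900.2 CPM in Δ/+ and 310.3, 178, 528 and 181 CPM in Δ/DN without a call (log2 difference -1.78 ± 0.56, adjusted p = 0.0707). It was called lower in library set 2 alone, in the 7 LPS libraries alone, without cultures 3 and 4 of Δ/DN and without Δ/DN replicate 3.

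Interferon-stimulated genes lay lower in Δ/DN as a group without a single call. All 50 tested had a negative log2 difference (41 in limma voom with culture as a random effect), with a median of -0.43 (all genes, 0.01). For 34 of the 50, every Δ/DN library was below every Δ/+ library, against 12% of all genes. Neither edgeR, DESeq2 nor limma voom called any of them, and 0 had an unadjusted p under 0.05. In fits that pooled fewer libraries, 4 fell with the 7 LPS libraries alone and no library set term, 3 with library set 2 alone and 7 without cultures 3 and 4 of Δ/DN. Ifit1, an inhibitor of viral translation, had 3897, 4877 and 3594 CPM in Δ/+ and 2628, 1645, 2811 and 1349 CPM in Δ/DN (log2 difference -1.25 ± 0.93, adjusted p = 0.447). Irgm1, an immunity-related GTPase, had 1073, 1176 and 1019 CPM in Δ/+ and 798, 564, 864 and 477 CPM in Δ/DN (log2 difference -0.80 ± 0.55, adjusted p = 0.399). Slfn8, a Schlafen family member, had 1228, 1352 and 1168 CPM in Δ/+ and 889, 639.6, 1038 and 544 CPM in Δ/DN (log2 difference -0.84 ± 0.57, adjusted p = 0.399). Relative to the Δ/+ LPS mean, the list's mean log2 CPM was -0.23, -0.57, -0.21 and -0.94 in Δ/DN replicates 1 to 4. Genes of a list are not independent of one another, so 34 of 50 is a description. Without LPS the list's median was 0.40, again with 0 calls, and its sign rested on 1 culture. In alternatives chosen after the data were seen, the median without LPS was -0.20 without both libraries of culture 3 of Δ/DN (40 of 50 negative) and -0.79 in library set 2 alone (49 of 50). For Ifit1 the levels without LPS were 86, 65.3, 108 and 16.8 CPM in the Δ/+ US libraries and 27.4, 18.1, 296 and 36.7 CPM in the Δ/DN US libraries.

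**Figure D4:**
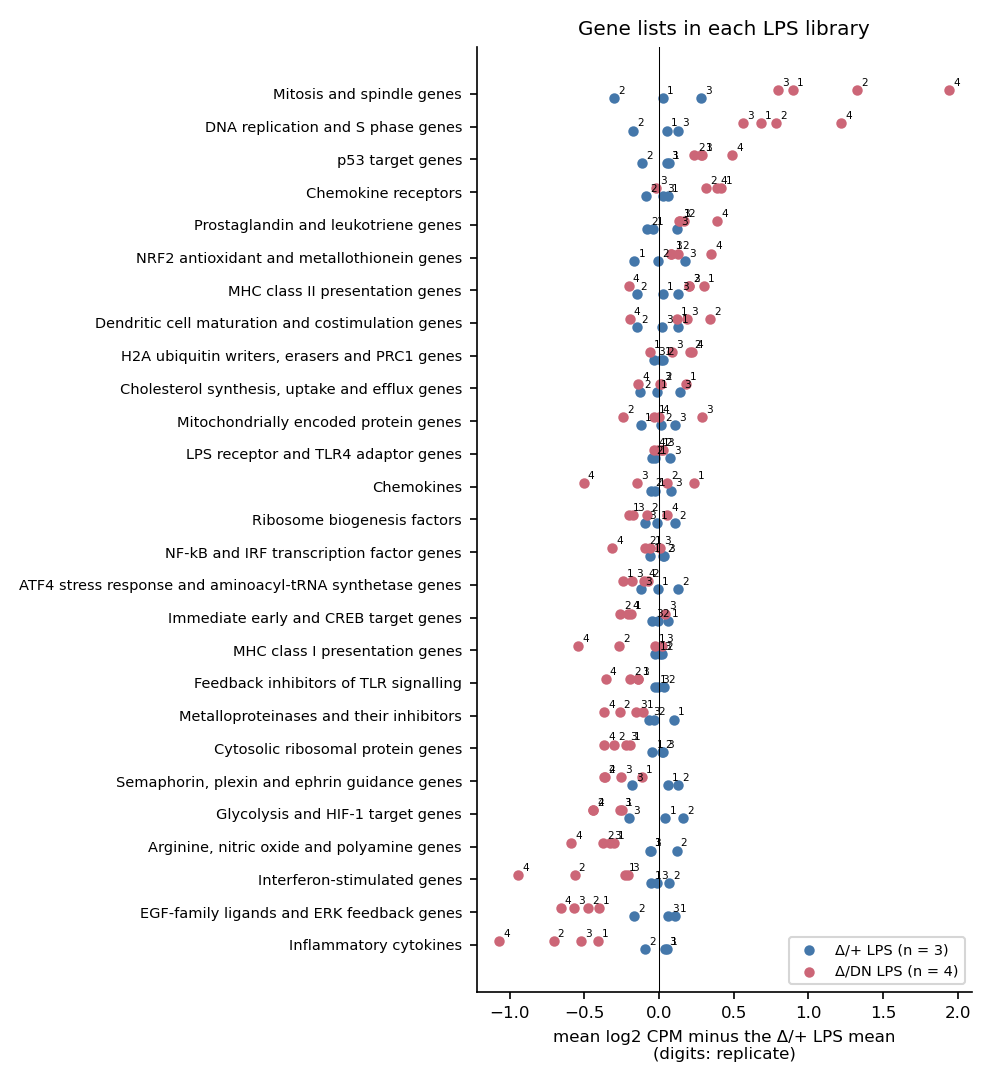
Mean log2 CPM of each pathway list in each LPS library, minus its mean over the Δ/+ LPS libraries (points, numbered by replicate). Mitosis and spindle genes lie highest in Δ/DN (0.80 to 1.94) and inflammatory cytokines lie between -1.07 and -0.41, with Δ/DN replicate 4 at the far end of both.

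Of 34 maturation and costimulation genes, 3 rose and none fell, against 5.37% and 3.23% of all genes. The edgeR count of 3 is too near that share to set these genes apart. At an unadjusted p under 0.05, 11 were higher and 1 lower. DESeq2 called 6 higher and 0 lower (1831 higher over all genes), and limma voom 5 and 0 (1155 higher over all genes). A positive log2 difference was found for 26 of the 34 (median 0.30). Pdcd1lg2, the PD-1 ligand PD-L2, had 61.2, 50.3 and 74.6 CPM in Δ/+ and 108, 109.8, 107 and 74.8 CPM in Δ/DN (log2 difference 0.82 ± 0.20, adjusted p = 0.0296). Nudt17 had 19.5, 18.1 and 20.2 CPM in Δ/+ and 32.1, 35.4, 27.9 and 25 CPM in Δ/DN (log2 difference 1.06 ± 0.27, adjusted p = 0.0326). Tmem150c rose by 1.70 ± 0.47. Cd80, a ligand of CD28, had 200.4, 168 and 206 CPM in Δ/+ and 256, 282, 209 and 172 CPM in Δ/DN, with overlapping groups (log2 difference 0.48 ± 0.15, adjusted p = 0.0621). The 14 MHC class II presentation genes had a median of 0.15, and 2 of them rose (5.37% of all genes). One was Ciita, the master regulator of MHC class II genes, with 72.3, 57.2 and 105 CPM in Δ/+ and 156, 310.4, 129 and 152 CPM in Δ/DN (log2 difference 1.65 ± 0.33, adjusted p = 0.0157). The other was H2-Eb2, with 3.67, 2.48 and 5.32 CPM in Δ/+ and 9.69, 15, 7.58 and 10.2 CPM in Δ/DN (log2 difference 1.84 ± 0.37, adjusted p = 0.0147). H2-Ob, which restrains peptide loading, had 28.4, 29.6 and 26.2 CPM in Δ/+ and 16.9, 10.6, 20.2 and 7.6 CPM in Δ/DN (log2 difference -1.07 ± 0.38, adjusted p = 0.0942). The class II genes H2-Aa (0.004 ± 0.21, adjusted p = 0.994) and Cd74 (0.28 ± 0.20, adjusted p = 0.431) were not called, with overlapping groups. None of 22 MHC class I presentation genes was called by edgeR, DESeq2 or limma voom, with 2 higher and 0 lower at an unadjusted p under 0.05. The list's median was -0.23, 17 of the 22 had a negative log2 difference, and 5 had every Δ/DN library below every Δ/+ library (0 the other way). Over all genes tested, 12% lay below in this way and 12.6% above. Calr, calreticulin, had the smallest p among them (0.45 ± 0.16, adjusted p = 0.0984). H2-Q6, a nonclassical class I gene (-0.74 ± 0.40), and B2m, the light chain (-0.38 ± 0.21), were among those with a negative difference. The calls of maturation genes fell from 3 to 0 without Δ/+ replicate 1, Δ/+ replicate 2 or Δ/DN replicate 2 and to 1 without Δ/+ replicate 3 or Δ/DN replicate 4, and those of class II genes fell from 2 to 0 without the first 3 of these. Tlr9, the endosomal receptor for CpG DNA, was named after its values were seen. It had 27.8, 20.5 and 29.1 CPM in Δ/+ and 54, 90.5, 43.5 and 36.6 CPM in Δ/DN (log2 difference 1.38 ± 0.21, adjusted p = 0.00547) and kept its call without any one LPS library.

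Of 18 EGF-family ligand and ERK feedback genes, 4 fell and 0 rose (9 lower and 3 higher at an unadjusted p under 0.05, 6 fallen and 1 risen by DESeq2, 4 and 0 by limma voom), with a median of -0.48. Ereg, the EGF receptor ligand epiregulin, had 83.3, 41.4 and 59.3 CPM in Δ/+ and 20.9, 14.3, 18 and 12.2 CPM in Δ/DN (log2 difference -1.74 ± 0.36, adjusted p = 0.0169). Errfi1, a feedback inhibitor of EGF receptors, had 275, 275 and 168 CPM in Δ/+ and 65.4, 26.4, 141 and 37.2 CPM in Δ/DN (log2 difference -2.40 ± 0.58, adjusted p = 0.0312). Spry2, the ERK brake Sprouty 2, had 5.96, 5.96 and 3.13 CPM in Δ/+ and 1.85, 2.1, 2.7 and 1.25 CPM in Δ/DN (log2 difference -1.53 ± 0.33, adjusted p = 0.0162). Phlda1 had 72.9, 70.1 and 78.4 CPM in Δ/+ and 39.8, 48.2, 60.2 and 50.8 CPM in Δ/DN (log2 difference -0.74 ± 0.13, adjusted p = 0.00946) and was called in all 7 fits with 1 LPS library left out. The count of 4 fell to 1 without Δ/+ replicate 1, 2 without Δ/+ replicate 2 and 1 without Δ/DN replicate 2, and 2 genes of the list rose without Δ/DN replicate 1.

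Immediate early and CREB target genes, which respond within minutes to ERK and cyclic AMP signals, included 5 that fell and 1 that rose, of 27. Ier2 had 26.1, 26.8 and 32.2 CPM in Δ/+ and 19.6, 16.7, 20.9 and 19 CPM in Δ/DN (log2 difference -0.74 ± 0.12, adjusted p = 0.00691), with a call in every one of the 7 fits. Atf4, the transcription factor of the integrated stress response, had 151, 162 and 142 CPM in Δ/+ and 125, 112, 123 and 123 CPM in Δ/DN (log2 difference -0.42 ± 0.11, adjusted p = 0.0323). Fosl2, an AP-1 subunit, had 189.9, 195 and 205 CPM in Δ/+ and 143, 173, 142 and 151 CPM in Δ/DN (log2 difference -0.42 ± 0.12, adjusted p = 0.0403). Egr1 (-1.04 ± 0.29) and the kinase gene Sik1 (-0.73 ± 0.20) fell and the clock gene Per1 rose (0.67 ± 0.18), with overlapping groups for Egr1 and Per1. The fallen count was 1 without Δ/+ replicate 1, Δ/+ replicate 2 or Δ/DN replicate 4, 2 without Δ/DN replicate 2 and 3 without Δ/+ replicate 3, where 3 rose. For prostaglandin signalling, which acts through cyclic AMP, Ptger2, the EP2 receptor gene, had 17.5, 20.1 and 11.7 CPM in Δ/+ and 6.37, 5.37, 9.81 and 10.9 CPM in Δ/DN (log2 difference -1.36 ± 0.21, adjusted p = 0.00513) and kept its call in the 7 fits. Ptger4, the EP4 receptor gene, had 71.8, 55.8 and 92.7 CPM in Δ/+ and 105, 129.8, 91.1 and 87.8 CPM in Δ/DN (log2 difference 0.58 ± 0.16, adjusted p = 0.0419). The groups of Ptger4 overlapped, with Δ/DN replicates 3 and 4 below Δ/+ replicate 3, and it was called in 3 of the 7 fits. Neither receptor gene was called in the 7 LPS libraries alone. The fitted differences of these 2 receptors for the same ligand had opposite signs. Alox5, which starts leukotriene synthesis, had 15.5, 11.7 and 11.1 CPM in Δ/+ and 19.3, 28.3, 18.4 and 27 CPM in Δ/DN (log2 difference 0.91 ± 0.25, adjusted p = 0.043). These 3 were the calls among 19 prostaglandin and leukotriene genes. Ptges, the inducible prostaglandin E synthase, had 62.4, 53.8 and 55.4 CPM in Δ/+ and 28.2, 29.9, 49.5 and 36.9 CPM in Δ/DN (log2 difference -0.84 ± 0.26, adjusted p = 0.0601). Of the risers, none was called without Δ/+ replicate 1, Δ/+ replicate 2 or Δ/DN replicate 2 and 1 without Δ/+ replicate 3 or Δ/DN replicate 4, and 2 genes of the list fell without Δ/DN replicate 1 or 3.

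Of 30 glycolysis and HIF-1 target genes, 7 fell and 2 rose (median -0.23), against 3.23% and 5.37% of all genes. Besides Egln3, the falls included Hif1a, the oxygen-regulated subunit, with 587, 694 and 573 CPM in Δ/+ and 406, 469, 293 and 291 CPM in Δ/DN (log2 difference -0.64 ± 0.15, adjusted p = 0.0246). Epas1 (HIF-2 alpha) had 8.79, 13.5 and 5.93 CPM in Δ/+ and 3.62, 1.67, 4.1 and 1.15 CPM in Δ/DN (log2 difference -2.13 ± 0.53, adjusted p = 0.0326). Ero1a, an oxidase of the endoplasmic reticulum, had 249, 276 and 164 CPM in Δ/+ and 126, 118, 149.8 and 124 CPM in Δ/DN (log2 difference -0.97 ± 0.17, adjusted p = 0.00864). Bnip3 (-1.23 ± 0.29), the collagen prolyl hydroxylase gene P4ha2 (-2.03 ± 0.52) and Adm, adrenomedullin (-1.84 ± 0.54), were the remaining ones. The genes that rose encode glycolytic enzymes. Tpi1, triosephosphate isomerase, had 98.5, 94.3 and 102 CPM in Δ/+ and 146, 152, 133 and 162 CPM in Δ/DN (log2 difference 0.57 ± 0.10, adjusted p = 0.00906). Hk1, hexokinase 1, rose by 0.45 ± 0.13. The fallen count was 2 without Δ/+ replicate 1, 1 without Δ/+ replicate 2 and 3 without Δ/DN replicate 2. The rises numbered 0 without Δ/+ replicate 2 or Δ/DN replicate 2, 1 without Δ/+ replicate 1, Δ/DN replicate 1 or Δ/DN replicate 4, and 3 without Δ/+ replicate 3. Of 16 arginine, nitric oxide and polyamine genes, 3 fell and 1 rose. Odc1, ornithine decarboxylase, had 136, 157 and 108 CPM in Δ/+ and 77.8, 80.9, 77.7 and 70.0 CPM in Δ/DN (log2 difference -0.86 ± 0.15, adjusted p = 0.00774). Arg1, arginase 1, had 109, 187 and 74.1 CPM in Δ/+ and 28.3, 41.6, 17.1 and 6.13 CPM in Δ/DN (log2 difference -2.12 ± 0.57, adjusted p = 0.0423). Only 1 of the 7 fits with 1 LPS library left out called Arg1. It was not called in library set 2 alone, in the 7 LPS libraries alone or without cultures 3 and 4 of Δ/DN. Amd1, which supplies the aminopropyl groups of polyamines, fell by a smaller amount (-0.35 ± 0.09). Asl, argininosuccinate lyase, rose (0.41 ± 0.10). These 3 falls became 1 without Δ/+ replicate 1, Δ/DN replicate 2 or Δ/DN replicate 4 and 0 without Δ/+ replicate 2, and Asl lost its call without Δ/+ replicate 1, Δ/+ replicate 2 or Δ/DN replicate 2. No cholesterol gene (27 tested, 2 higher and 1 lower at an unadjusted p under 0.05, 1 higher by DESeq2, 0 by limma voom) and none of 13 mitochondrially encoded protein genes (0 at an unadjusted p under 0.05, 0 by DESeq2 and 0 by limma voom) was called.

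The metallothionein genes Mt1 and Mt2, which encode small metal-binding proteins, both fell. Their transcription is known to be driven by the zinc sensor MTF1 through metal response elements. The promoter sequences are shown because the members moved together. Each is the 250 bases upstream of the start in the RefSeq annotation of GRCm38, 5′ to 3′, on the plus strand, at chr8:94178839-94179088 for Mt1 and chr8:94172368-94172617 for Mt2. Capitals mark each match to TGCNCNC on either strand, a looser form of the element's core, TGCRCNC (R is A or G). In the Mt2 sequence, GGGAGCA (read on the other strand) and TGCTCTC have T at the place of R.
Mt1: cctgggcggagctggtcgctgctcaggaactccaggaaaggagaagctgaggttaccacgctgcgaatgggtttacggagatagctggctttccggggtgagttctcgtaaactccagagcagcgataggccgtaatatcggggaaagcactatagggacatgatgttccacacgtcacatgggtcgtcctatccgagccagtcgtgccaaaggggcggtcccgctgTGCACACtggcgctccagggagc
Mt2: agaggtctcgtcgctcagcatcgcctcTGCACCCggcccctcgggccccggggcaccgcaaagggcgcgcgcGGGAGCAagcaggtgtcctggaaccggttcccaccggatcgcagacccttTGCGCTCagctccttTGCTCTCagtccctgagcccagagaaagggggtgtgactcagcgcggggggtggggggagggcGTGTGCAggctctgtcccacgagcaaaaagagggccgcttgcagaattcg
The Mt1 sequence holds 1 match to the looser form and that of Mt2 holds 5, while 44.4% of 32851 promoters of the same length hold at least 1. The stricter core was not counted over all promoters. Both counts depend on where the annotated start lies, which was not checked, so they do not compare the elements of the 2 promoters. A match is a description of letters and not a bound site. Mt2 stood at 230.1, 330.3 and 193 CPM in Δ/+ and 99.4, 96.3, 124 and 91.4 CPM in Δ/DN (log2 difference -1.43 ± 0.20, adjusted p = 0.0039) and was called in all 7 fits with 1 LPS library left out. Mt1 had 149, 191 and 144 CPM in Δ/+ and 102, 109, 121 and 123 CPM in Δ/DN (log2 difference -0.67 ± 0.12, adjusted p = 0.00804). Slc39a14, the zinc and iron importer ZIP14, was named after its values were seen and had 165, 215 and 155 CPM in Δ/+ and 86.4, 65.6, 128 and 85.2 CPM in Δ/DN (log2 difference -1.24 ± 0.18, adjusted p = 0.0039). In all 3 genes every Δ/DN library was lower than every Δ/+ library. The NRF2 antioxidant and metallothionein list of 26 held 3 falls and 3 rises. Gclc, which makes glutathione's precursor, was the other fall (-0.36 ± 0.09), with overlapping groups. G6pdx (0.62 ± 0.15), the quinone reductase gene Nqo1 (0.92 ± 0.26) and Cat, catalase (0.46 ± 0.12), rose. The falls numbered 1 without Δ/+ replicate 2, and the rises numbered 0 without Δ/+ replicate 1, Δ/+ replicate 2 or Δ/DN replicate 2 and 5 without Δ/DN replicate 3.

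Of 41 mitosis and spindle genes, 24 rose and none fell (background 5.37% of all genes), with a median log2 difference of 1.37. For 36 of the 41, every Δ/DN library was above every Δ/+ library (12.6% of all genes). Plk1, the polo-like kinase of mitotic entry, had 2.28, 1.73 and 2.2 CPM in Δ/+ and 4.46, 8.4, 4.3 and 15.2 CPM in Δ/DN (log2 difference 1.91 ± 0.51, adjusted p = 0.0401). Ccnb1, cyclin B1, had 4.36, 2.11 and 4.21 CPM in Δ/+ and 8.81, 13.7, 8.56 and 25.7 CPM in Δ/DN (log2 difference 1.87 ± 0.45, adjusted p = 0.0287). The kinase gene Melk had 2.66, 1.79 and 3.21 CPM in Δ/+ and 6.04, 8.73, 6.7 and 11.6 CPM in Δ/DN (log2 difference 1.69 ± 0.35, adjusted p = 0.0157). The chromokinesin gene Kif4 had 8.33, 7.35 and 13.2 CPM in Δ/+ and 20.0, 24.2, 17.9 and 25.1 CPM in Δ/DN (log2 difference 1.23 ± 0.28, adjusted p = 0.0229). The spindle gene Hmmr had 2.77, 2.48 and 3.18 CPM in Δ/+ and 6.61, 8.62, 6.64 and 14.5 CPM in Δ/DN (log2 difference 1.67 ± 0.38, adjusted p = 0.024), and the kinetochore gene Spc25 had 1.19, 1.13 and 1.74 CPM in Δ/+ and 3.8, 3.19, 3.99 and 6.97 CPM in Δ/DN (log2 difference 1.59 ± 0.37, adjusted p = 0.0243). Levels were low, at most 25.7 CPM, and Δ/DN replicate 4 was the highest library for each of these 6 genes, followed by replicate 2 in 5 of them. The list's mean log2 CPM was 0.90, 1.33, 0.80 and 1.94 above the Δ/+ mean in Δ/DN replicates 1 to 4. The same 2 Δ/DN libraries had the highest summed levels of 18 neutrophil markers (293, 662, 358 and 1612 CPM in Δ/DN replicates 1 to 4, against 242 to 313 CPM in Δ/+) and the lowest share of reads from 7SL RNA (2.81%, 2.69%, 4.03% and 1.61%, against 4.24% to 5.0%). The part of these in the result was not tested. In bulk libraries a larger share of dividing cells and more RNA per dividing cell cannot be told apart. The count of 24 became 0 without Δ/+ replicate 1, Δ/+ replicate 2 or Δ/DN replicate 2, 12 without Δ/+ replicate 3 and 19 without Δ/DN replicate 4, with the list's median between 1.14 and 1.52 in these fits and those without the other 2.

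Many promoters of mitotic genes hold CCAAT boxes, the site known to be bound by the factor NF-Y. The sequences of Plk1 and Ccnb1 are shown because these genes had the largest rises of the list among those with a mean of at least 5 CPM in Δ/DN. They are again the 250 bases upstream of the RefSeq start in GRCm38, 5′ to 3′, at chr7:122159185-122159434 on the plus strand for Plk1 and chr13:100786487-100786736 on the minus strand for Ccnb1, with CCAAT on either strand in capitals.
Plk1: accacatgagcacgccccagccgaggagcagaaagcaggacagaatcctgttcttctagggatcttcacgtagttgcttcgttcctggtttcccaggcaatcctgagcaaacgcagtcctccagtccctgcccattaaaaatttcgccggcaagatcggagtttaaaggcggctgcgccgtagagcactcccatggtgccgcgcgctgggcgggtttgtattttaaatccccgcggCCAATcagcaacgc
Ccnb1: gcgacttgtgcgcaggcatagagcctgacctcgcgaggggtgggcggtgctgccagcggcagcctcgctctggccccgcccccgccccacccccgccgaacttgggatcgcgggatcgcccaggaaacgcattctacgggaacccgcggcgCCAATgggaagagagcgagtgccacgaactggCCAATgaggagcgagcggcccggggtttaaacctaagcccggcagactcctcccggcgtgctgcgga
Of the 35 promoters found for the mitosis and spindle list, 26 (74.3%) held the letters, as did 26 of 43 (60.5%) for the S phase list and 33.9% of all 32851 promoters. These shares describe the lists and not the genes that moved.

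Of 41 DNA replication and S phase genes, 17 rose and 2 fell (median 0.88), against 5.37% and 3.23% of all genes. Without LPS 33 of them rose and 0 fell (median 0.96), against 5.01% and 5.45% of all genes. Prim1, the primase subunit, had 1.38, 1.16 and 0.825 CPM in Δ/+ and 2.97, 2.83, 2.22 and 3.5 CPM in Δ/DN (log2 difference 1.43 ± 0.30, adjusted p = 0.0157). The replicative helicase gene Mcm2 had 2.52, 2 and 3.12 CPM in Δ/+ and 6.89, 7.44, 5.62 and 13.1 CPM in Δ/DN (log2 difference 1.67 ± 0.36, adjusted p = 0.0178). Rrm2, which makes deoxynucleotides, had 5.34, 3.68 and 6.94 CPM in Δ/+ and 12, 13.1, 11.5 and 18.9 CPM in Δ/DN (log2 difference 1.40 ± 0.31, adjusted p = 0.0199). The 2 that fell with LPS were Slbp and Pcna. Slbp, which binds the stem-loop of histone mRNA, had 30.9, 33.4 and 29.1 CPM in Δ/+ and 24.3, 18.9, 25.5 and 23.8 CPM in Δ/DN (log2 difference -0.57 ± 0.12, adjusted p = 0.0159). Pcna, the polymerase clamp, had 151, 166 and 135 CPM in Δ/+ and 118, 87, 125 and 99.8 CPM in Δ/DN (log2 difference -0.65 ± 0.15, adjusted p = 0.0201). Without Δ/+ replicate 1, Δ/+ replicate 2 or Δ/DN replicate 2, 1, 0 and 0 of the list rose and none fell. Outside the list, Cdkn2c, which encodes the cell cycle inhibitor p18INK4c, had 1.09, 1.55 and 1.15 CPM in Δ/+ and 3.29, 4.84, 2.86 and 5.4 CPM in Δ/DN (log2 difference 1.76 ± 0.30, adjusted p = 0.00784). Cdkn2a, the INK4A and ARF locus, had 0.45, 0.516 and 0.537 CPM in Δ/+ and 3.39, 2.16, 1.15 and 1.99 CPM in Δ/DN (log2 difference 2.32 ± 0.36, adjusted p = 0.00513). Both were named after their values were seen, and both were called in all 7 fits with 1 LPS library left out.

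Of 35 p53 target genes, 11 rose and 2 fell (median 0.30), against 5.37% and 3.23% of all genes. Pmaip1, the BH3-only gene NOXA, had 37.8, 31.7 and 53 CPM in Δ/+ and 70.0, 100.4, 64.1 and 78.6 CPM in Δ/DN (log2 difference 1.16 ± 0.21, adjusted p = 0.00965). Phlda3, an inhibitor of AKT, had 2.4, 2.32 and 1.99 CPM in Δ/+ and 4.07, 3.3, 4.54 and 4.79 CPM in Δ/DN (log2 difference 0.76 ± 0.15, adjusted p = 0.0124). Ccng1, cyclin G1, had 108, 101 and 102 CPM in Δ/+ and 147, 137, 128 and 160.1 CPM in Δ/DN (log2 difference 0.46 ± 0.10, adjusted p = 0.0178). The stress gene Sesn2 had 15.7, 11.6 and 11.7 CPM in Δ/+ and 18.4, 24.1, 16.3 and 19.3 CPM in Δ/DN (log2 difference 0.79 ± 0.17, adjusted p = 0.0162). Trp53 itself, which the list includes, had 35.2, 31.2 and 36.8 CPM in Δ/+ and 42.9, 44.5, 39.4 and 47.2 CPM in Δ/DN (log2 difference 0.34 ± 0.09, adjusted p = 0.0387). The 2 that fell were Mdm2, the ubiquitin ligase that limits p53 (349, 419.7 and 277 CPM in Δ/+ and 247, 238, 296 and 227 CPM in Δ/DN, log2 difference -0.53 ± 0.14), and Gadd45a, a growth arrest gene (33.8, 34.8 and 30.1 CPM in Δ/+ and 15.7, 12.9, 24 and 20.3 CPM in Δ/DN, log2 difference -0.93 ± 0.24). The list's mean log2 CPM was 0.29, 0.24, 0.28 and 0.49 above the Δ/+ mean in Δ/DN replicates 1 to 4. The list also holds the mitotic genes Gtse1 and Psrc1 among its risers. The 11 rises became 4 without Δ/+ replicate 1, 0 without Δ/+ replicate 2 and 1 without Δ/DN replicate 2, with 0 falls in each, and 1 fell without Δ/DN replicate 1 or 4.

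The list of cytosolic ribosomal proteins had 79 genes, of which 18 fell (background 3.23%) and none rose, with a median of -0.29. DESeq2 called 23 lower and 0 higher, limma voom called 21 and 0, and at an unadjusted p under 0.05 edgeR placed 47 and 0. Every Δ/DN library was below every Δ/+ library for 63 of them (12% of all genes). Rpl23 had 323, 329.6 and 333 CPM in Δ/+ and 240.0, 219, 255 and 210.5 CPM in Δ/DN (log2 difference -0.51 ± 0.11, adjusted p = 0.0157). Rps27 had 187, 198 and 193 CPM in Δ/+ and 136, 116, 156 and 125 CPM in Δ/DN (log2 difference -0.60 ± 0.13, adjusted p = 0.0157). Rpl38 (-0.58 ± 0.13) and Rpl24 (-0.50 ± 0.11) were of like size. Ribosomal protein genes have many processed pseudogenes, so their values are uncertain where reads were shared. The count was 0 without Δ/+ replicate 1, Δ/+ replicate 2 or Δ/DN replicate 2 and 8 without Δ/+ replicate 3 or Δ/DN replicate 4. Of 45 ribosome biogenesis factors, 9 fell and 1, Nop16, rose (median -0.16). Without LPS 35 of them fell and 0 rose (median -0.50), against 5.45% and 5.01% of all genes. Rcl1, a processing factor of ribosomal RNA, had 81.3, 96.2 and 76.3 CPM in Δ/+ and 51.9, 50.8, 55.1 and 46.3 CPM in Δ/DN (log2 difference -0.73 ± 0.10, adjusted p = 0.0039) and kept its call in the 7 fits. The helicase gene Ddx10 (-0.52 ± 0.09), Noc3l (-0.47 ± 0.10) and the nucleolar chaperone gene Nolc1 (-0.47 ± 0.11) also fell. The 9 falls became 3 without Δ/+ replicate 1 and 1 without Δ/+ replicate 2 or Δ/DN replicate 2. In the list of 29 ATF4 stress response and tRNA synthetase genes, 3 rose, among them Sesn2 and the seryl-tRNA synthetase gene Sars (0.39 ± 0.10), and 3 fell, among them Atf4 and the stress gene Nupr1 (-0.91 ± 0.24). Without Δ/+ replicate 1, 1 rose and 0 fell, without Δ/+ replicate 2 or Δ/DN replicate 2 neither was called, without Δ/+ replicate 3, 1 rose and 4 fell, and without Δ/DN replicate 4, 2 rose and 1 fell.

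The machinery of the mark that MYSM1 removes was mostly not called. Of 32 genes for H2A ubiquitin writers, erasers and Polycomb repressive complex 1, 1 rose and 1 fell (median 0.04). Rybp, a subunit of the variant complex, had 76.7, 97.8 and 53.3 CPM in Δ/+ and 31.4, 30.9, 45.6 and 34.3 CPM in Δ/DN (log2 difference -1.27 ± 0.18, adjusted p = 0.0039), called in all 7 fits. Its pseudogene Rybp-ps moved likewise (-1.24 ± 0.18), so reads may be shared between them and both values are uncertain. Usp22, the deubiquitinase of the SAGA complex, had 37.6, 34.9 and 43.7 CPM in Δ/+ and 58.9, 60.8, 42.7 and 56.9 CPM in Δ/DN (log2 difference 0.55 ± 0.14, adjusted p = 0.0318), with overlapping groups. It lost its call without Δ/+ replicate 1, Δ/+ replicate 2, Δ/DN replicate 2 or Δ/DN replicate 4, while 3 genes of the list rose without Δ/DN replicate 1.

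Guidance and matrix genes gave calls in both directions. Of 34 semaphorin, plexin and ephrin genes, 5 rose and 4 fell (5.37% and 3.23% of all genes). Plxnc1, a plexin receptor, had 93.1, 79 and 101 CPM in Δ/+ and 150.4, 195, 123 and 157 CPM in Δ/DN (log2 difference 0.89 ± 0.16, adjusted p = 0.00906). Sema4a, a semaphorin of dendritic cells that costimulates T cells, had 289.6, 266 and 363 CPM in Δ/+ and 469, 494, 393 and 432 CPM in Δ/DN (log2 difference 0.67 ± 0.15, adjusted p = 0.0173). Plxnd1, one of its receptors, had 659.7, 596 and 763 CPM in Δ/+ and 895, 1105, 911 and 906 CPM in Δ/DN (log2 difference 0.54 ± 0.12, adjusted p = 0.0198). Sema3c, a secreted semaphorin, fell from a low level (3.49, 5.34 and 1.78 CPM in Δ/+ and 0.818, 0.296, 0.842 and 0.603 CPM in Δ/DN, log2 difference -2.94 ± 0.55). Of 31 metalloproteinase genes and inhibitors, Mmp23 rose (1.53 ± 0.38) and Mmp17 fell, the latter near the floor with 0.204, 0.274 and 0.157 CPM in Δ/+ and 0, 0, 0.0842 and 0.0354 CPM in Δ/DN. Mmp19 had 434, 499 and 182 CPM in Δ/+ and 163, 80.5, 181 and 72.5 CPM in Δ/DN (log2 difference -1.84 ± 0.53, adjusted p = 0.0504). Guidance genes numbered 1 rise and 2 falls without Δ/+ replicate 1 and 0 rises and 1 fall without Δ/+ replicate 2 or Δ/DN replicate 2. The metalloproteinase list had 0 calls without any of these 3, 5 rises and 3 falls without Δ/DN replicate 1, 2 falls without Δ/DN replicate 3 and 0 falls without Δ/DN replicate 4.

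The genotype difference with LPS was set beside that without LPS, which compares the US libraries, in part from the same cultures. Both differences come from the same fit and share its spread and its library set term. Without LPS 2184 genes (10.5%) were called. Of the 1121 genes that rose with LPS, 408 (36.4%) also rose without it, which is 39.0% of the 1046 (5.01% of genes) that rose there. Of the 674 that fell, 280 (41.5%) also fell without LPS, 24.6% of the 1138 (5.45%) that fell there. A difference between both contrasts was called for 1 gene (0.00479%), Emilin1, and 1191 genes higher and 682 lower reached an unadjusted p under 0.05. A gene called in 1 condition alone is thus not shown to differ. The fit had no term for culture, although deviations of a culture's US and LPS libraries correlated at 0.064 to 0.43. Culture as a random effect was fitted for the difference with LPS alone. The count of 1 comes from an unpaired test and does not show that differences depending on LPS are few. Emilin1, an elastic fibre glycoprotein gene, had 32.4, 30.7 and 23.1 CPM in Δ/+ and 13.1, 13.8, 10.7 and 15.8 CPM in Δ/DN (log2 difference -1.09 ± 0.17, adjusted p = 0.00595). Without LPS it lay the other way, with 15.2, 14.2, 19.9 and 14.8 CPM in the Δ/+ US libraries and 24.6, 24.2, 21.2 and 28.8 CPM in the Δ/DN US libraries (log2 difference 0.63 ± 0.15, adjusted p = 0.0222), and the difference of the differences was -1.72 ± 0.22 (adjusted p = 0.0327). No gene was called for this difference without Δ/+ replicate 1, Δ/+ replicate 2, Δ/DN replicate 1 or Δ/DN replicate 2, and 3 and 15 genes were called without Δ/+ replicate 3 and Δ/DN replicate 3. For Penk the difference without LPS was -0.41 ± 0.41 (adjusted p = 0.59) and the change of the difference -2.57 ± 0.59 (adjusted p = 0.239). Creb3l1, a membrane-bound transcription factor gene named after its values were seen, had 19, 21.5 and 19.6 CPM in Δ/+ and 8.94, 6.35, 6.82 and 3.9 CPM in Δ/DN with LPS (log2 difference -1.47 ± 0.21, adjusted p = 0.0039), and 0.28 ± 0.20 without LPS (adjusted p of the change, 0.161). In contrast Lipo3 (-1.41 ± 0.10), Epha4 (-3.14 ± 0.46), Ereg (-2.09 ± 0.49) and Errfi1 (-2.57 ± 0.52) were called lower without LPS as well.

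**Figure D5:**
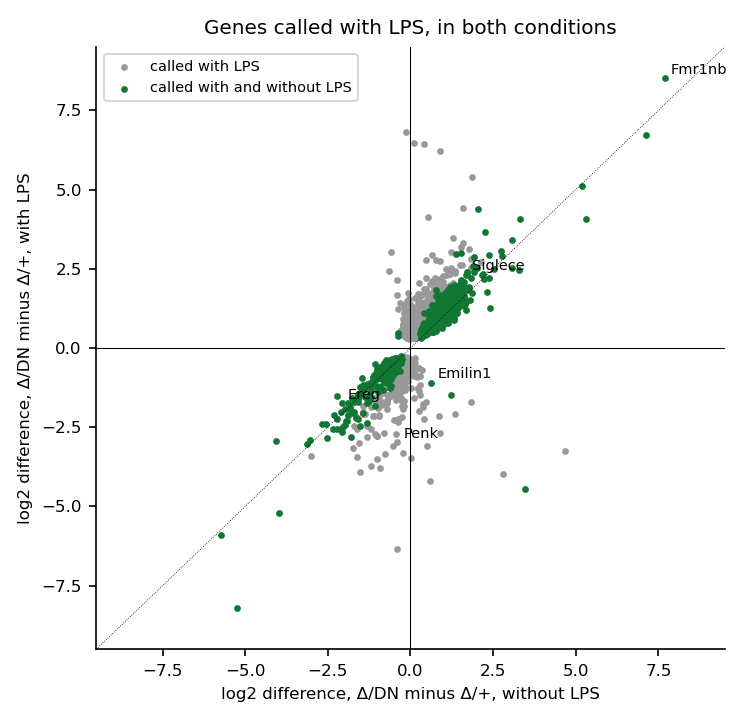
Log2 difference (Δ/DN minus Δ/+) without LPS (x axis) and with LPS (y axis) for the 1795 genes called with LPS, with those also called without LPS in green. Of the 1121 genes that rose, 1029 are positive on the x axis and of the 674 that fell, 630 are negative, and Emilin1 lies on the opposite side.

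Markers of other cell types were read from 12 lists. Over the 16 conventional dendritic cell markers, the summed level was 2451 to 2820 CPM in Δ/+ and 2554 to 3231 CPM in Δ/DN. Dpp4 was called higher (1.44 ± 0.41), with 14.5, 9.72 and 14.7 CPM in Δ/+ and 16.6, 49.2, 13.6 and 8.59 CPM in Δ/DN. Its groups overlapped, Δ/DN replicate 4 lay below every control, and 1 of the 7 fits with 1 LPS library left out called it. The lectin gene Clec10a was called lower, from 71.7, 93.7 and 73.8 to 49.6, 32.8, 59.2 and 39.3 CPM (log2 difference -1.04 ± 0.21, adjusted p = 0.0151). Zbtb46, the defining factor of conventional dendritic cells, had 59.8, 45.6 and 57.7 CPM in Δ/+ and 63.1, 77.2, 64.5 and 52 CPM in Δ/DN (log2 difference 0.50 ± 0.15, adjusted p = 0.0589). Of 17 macrophage markers tested, 2, C1qa and Gpnmb, rose and 3, Cd68, Arg1 and Marco, fell. The call of Arg1 held in 1 of the 7 fits with 1 LPS library left out. C1qa, a complement component, had 48.4, 45.9 and 46.8 CPM in Δ/+ and 90.0, 63.7, 48.7 and 32.8 CPM in Δ/DN (log2 difference 0.75 ± 0.16, adjusted p = 0.0161), with Δ/DN replicate 4 below every control. Cd68, a lysosomal glycoprotein, had 223, 227 and 217 CPM in Δ/+ and 181, 155, 239.7 and 184 CPM in Δ/DN (log2 difference -0.47 ± 0.12, adjusted p = 0.0266), with Δ/DN replicate 3 above every control. The list had sums of 3378 to 3980 CPM in Δ/+ and 3237 to 4720 CPM in Δ/DN. The 10 plasmacytoid markers summed to 575 to 639 CPM in Δ/+ and 369 to 555 CPM in Δ/DN, and Pacsin1 rose (2.22 ± 0.54). Of 18 neutrophil markers 1 was called, Csf3r, the G-CSF receptor, with 13.1, 14.7 and 14.9 CPM in Δ/+ and 24.4, 36.3, 29.1 and 45.7 CPM in Δ/DN (log2 difference 1.02 ± 0.27, adjusted p = 0.0348). The median over the list was 0.99. None of 8 monocyte markers was called (1 higher and 1 lower at an unadjusted p under 0.05, 0 higher and 1 lower by DESeq2 and by limma voom). The coagulation factor gene F13a1, one of them, had 157, 196 and 149 CPM in Δ/+ and 66.2, 22.5, 108 and 43.7 CPM in Δ/DN (log2 difference -1.78 ± 0.56, adjusted p = 0.0708).

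Of 9 mast cell and basophil markers tested, Cd200r3 (1.10 ± 0.26) and Gata2 (2.81 ± 0.71) rose, both with overlapping groups. Gata2 had 0.504, 0.532 and 0.458 CPM in Δ/+ and 2.035, 5.9, 0.337 and 3.25 CPM in Δ/DN. The summed level of the list ran from 130 to 153 CPM in Δ/+ and from 142 to 169 CPM in Δ/DN. Of 7 erythroid and megakaryocyte markers tested, Pf4 and the platelet integrin gene Itga2b rose, the latter with 1.43, 1.4 and 1.24 CPM in Δ/+ and 5.79, 4.17, 1.43 and 4.97 CPM in Δ/DN (log2 difference 1.93 ± 0.46, adjusted p = 0.0243), and the list's sum was 39.0 to 45.8 CPM in Δ/+ and 47.7 to 114 CPM in Δ/DN. Of 9 progenitor markers, Cd34 (2.45 ± 0.70) and Gata2 rose and Meis1 (-1.05 ± 0.28) fell. Cd34 had 1.46, 0.435 and 1.56 CPM in Δ/+ and 3.32, 7.915, 0.814 and 3.08 CPM in Δ/DN, with overlapping groups. It was not called in library set 2 alone, in the 7 LPS libraries alone or without cultures 3 and 4 of Δ/DN. The eosinophil ribonuclease gene Ear1 fell (-1.86 ± 0.51), with list sums of 286 to 370 CPM in Δ/+ and 98.7 to 266 CPM in Δ/DN. In Δ/+ most of that sum was Ear2, which was not called (-1.45 ± 0.56, adjusted p = 0.13). The list's mean log2 CPM, relative to the Δ/+ mean, overlapped (-0.15 to 0.29 in Δ/+, -0.63 to 1.15 in Δ/DN). The stromal and endothelial list had 1 fall, Lepr, and sums of 131 to 169 CPM in Δ/+ and 58.7 to 100 CPM in Δ/DN. Most of the sum in each library was Kdr, which was not called (-1.12 ± 0.49, adjusted p = 0.175). Of the 12 stromal and endothelial genes tested, 5 had a positive log2 difference and 7 a negative one. Their mean log2 CPM, relative to the Δ/+ mean, overlapped (-0.50 to 0.27 in Δ/+, -0.60 to 0.16 in Δ/DN). The 8 B cell and 6 T and NK cell markers tested had no call (1 higher and 1 lower in each at an unadjusted p under 0.05; DESeq2 called 1 higher and 1 lower B cell marker and no T or NK marker, and limma voom no B cell marker and 1 higher T or NK marker). Without Δ/+ replicate 1, Δ/+ replicate 2 or Δ/DN replicate 2, calls were left in the dendritic cell, macrophage and stromal lists alone. Vsig4, Mcpt4, Gzma and Car1 had no reads in any LPS library, which allows up to 0.0354 to 0.0501 CPM in a library (3 counts, counting error only). The part of these cell types in the results was not tested.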

How the data were processed

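The authors deposited raw read counts per gene for each of the 15 libraries, with no normalised values used here. The submitters' processing notes name featureCounts, HISAT2 2.2.1, Trimmomatic 0.33, bedtools, FastQC and edgeR, and build mm39 (GRCm39). Their parameters and the use of strand are not given in the sources used here, so overlapping and antisense genes are uncertain. Per the labels' protocols, ribosomal RNA was depleted before library preparation. The deposited gene lengths were not used, so levels are not compared between genes.

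From the counts, edgeR 4.0.16 (R 4.3.3, limma 3.58.1) was fitted by quasi-likelihood to all 15 libraries with 4 groups and library set, TMM scaling, a filterByExpr minimum of 10 counts and p-values adjusted by Benjamini-Hochberg over 20865 genes. CPM are TMM-scaled, and log2 CPM used a prior count of 2. DESeq2 1.42.0, limma voom with culture as a random effect (consensus correlation 0.279), other scalings, filters and library subsets were alternatives. On simulated counts for 20200 genes, the test found 71% of 100 genes changed by 1 log2 unit and 95% of 100 changed by 2, with 14 false calls. The simulated libraries had no correlation within a culture, no library set effect and no library that stood apart. Only genes with a mean above 1 CPM were changed. These shares therefore do not carry over to the real libraries. Sequences come from RefSeq tables of GRCm38.p6.

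The comparison and the gene lists were chosen with earlier results of these data known. Genes named were Mysm1, the 15 largest changes in each direction among called protein-coding genes with a mean of at least 5 CPM in the higher group and no overlap of libraries, the 10 smallest p each way, up to 4 of smallest p in each list, and those whose difference depended on LPS, leaving out Xist, Y-linked and unnamed genes. A few genes that met the rule are not reported here. Outside the rule, and named after their values were seen, are Tlr4, Tnf, Il6, Il12b, Il23a, Ltb, Tnfaip3, Zfp36, Il1rn, Egr1, Sik1, Bnip3, P4ha2, Adm, Hk1, Pcna, Cdkn2a, Cdkn2c, Trp53, Mdm2, Gadd45a, Gtse1, Psrc1, Nop16, Rybp-ps, Plxnd1, Nqo1, Cat, Slc39a14, Tlr9, Creb3l1, H2-Aa, Cd74 and the genes of the closing observations.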

Additional observations from a re-analysis of the deposited data

Results flagged for a closer look

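In 7 of 195 genes and marker sums examined, 1 Δ/DN LPS library stood apart from the other 3 by Dixon's test, which flags about 1 group in 20 by chance. Δ/DN replicate 3 was high for Zfp503 (6.87 CPM, others 4.38 to 4.62) and Car4 (258 CPM, others 59.2 to 82.8). Δ/DN replicate 1 was high for Tle1 (5.27 CPM, others 3.40 to 3.41). Δ/DN replicate 2 was high for Ciita (310.4 CPM, others 129 to 156) and Plxnd1 (1105 CPM, others 895 to 911). Δ/DN replicate 4 was low for Pdcd1lg2 (74.8 CPM, others 107 to 109.8) and high for Cat (156 CPM, others 106 to 113).

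The genotype difference in Emilin1 changed with LPS by -1.72 log2 units (edgeR, adjusted p = 0.0327). It was the 1 gene called for such a change, in a fit without a term for culture.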

How the results depend on the processing

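With 3 and 4 libraries the number of calls was unstable: leaving out 1 LPS library at a time gave 90 to 2233 genes called, 53 to 1358 higher and 37 to 875 lower in Δ/DN, and 0 to 15 whose difference depended on LPS. DESeq2's Wald test called 3017 (1831 higher, 1186 lower). The 7 LPS libraries alone gave 745 higher. Without both libraries of culture 3 of Δ/DN, 2878 were called, 1281 of them lower, and 44 depended on LPS; 2 did without culture 4, 9 without both cultures and 4 in library set 2 alone. A replicate block gave 3809 calls (2230 higher, 1579 lower) and 11 that depended on LPS, but 0 of 6 libraries correlated best with their own number (deviations of the pairs correlated at 0.012, -0.037 and -0.089), so the numbers do not pair these libraries. The causes were not tested.

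The other scalings and filters kept every total within 1.5 times. Of 159 called genes named in the text, 2438 of 3018 combinations of gene and alternative kept the call, 580 lost it and 0 changed sign. Of the uncalled genes, Tlr4 ranged from -0.075 to 0.13 and Tnf from -0.16 to 0.34 with 1 LPS library left out. Tlr4 was at -0.011 in limma voom. In the LPS libraries 3 counts, the limit set for detection, came to 0.0354 to 0.0501 CPM. Where a library was left out, the spread was pooled over the groups.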

Other observations

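Several further genes that kept their call without any one LPS library belong to none of the lists and were named after their values were seen. Zfp36l1, a paralog of Zfp36 that also promotes mRNA decay, had 102, 85.9 and 153 CPM in Δ/+ and 218, 328, 178 and 242 CPM in Δ/DN (log2 difference 1.27 ± 0.20, adjusted p = 0.00513), the opposite direction to Zfp36. Gfpt1 and Gfpt2, which catalyse the same first step of the hexosamine pathway, also lay in opposite directions, with Gfpt1 at 57.3, 52.7 and 72.6 CPM in Δ/+ and 95.5, 113, 93.9 and 104 CPM in Δ/DN (log2 difference 0.84 ± 0.13, adjusted p = 0.00503). Arrb1, beta-arrestin 1, had 37.8, 28.4 and 39.2 CPM in Δ/+ and 76.5, 112, 55.4 and 90.6 CPM in Δ/DN (log2 difference 1.38 ± 0.22, adjusted p = 0.00582) and the adhesion molecule gene L1cam had 11.9, 7.83 and 12.1 CPM in Δ/+ and 27.3, 27.9, 25.8 and 28.8 CPM in Δ/DN (log2 difference 1.55 ± 0.25, adjusted p = 0.00705). Plin3, a lipid droplet coat gene, rose (0.67 ± 0.11) and Gpat3, which makes glycerolipids, fell (-1.58 ± 0.28). Rnf43, a ubiquitin ligase that removes WNT receptors, rose from a very low level, with 0.245, 0.145 and 0.183 CPM in Δ/+ and 0.868, 1.36, 0.477 and 0.78 CPM in Δ/DN (2.76 ± 0.41).

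Of the kinases that act on p38, Map2k3 had 98.6, 113 and 87.2 CPM in Δ/+ and 60.4, 49.4, 73.4 and 57 CPM in Δ/DN (log2 difference -0.99 ± 0.16, adjusted p = 0.00682). Noct, nocturnin, had 24.3, 28.1 and 17.2 CPM in Δ/+ and 10.6, 9.36, 12.9 and 11.1 CPM in Δ/DN (log2 difference -1.26 ± 0.18, adjusted p = 0.0039), and Elk3, an ETS factor regulated by ERK, had 47.1, 47.4 and 41.6 CPM in Δ/+ and 28.2, 28.1, 29.2 and 26.1 CPM in Δ/DN (log2 difference -0.71 ± 0.10, adjusted p = 0.0039). Acvr1b, an activin receptor, fell (-0.85 ± 0.14). Gal, which encodes the neuropeptide galanin, had 4, 5.21 and 3.33 CPM in Δ/+ and 0.651, 0.533, 2.44 and 3.08 CPM in Δ/DN (log2 difference -2.65 ± 0.45, adjusted p = 0.00774). The Δ/DN libraries of set 3 lay near the controls, and with no library set term the log2 difference of Gal was -1.30 and was not called. By class of gene, 1039 of 13797 protein-coding genes tested rose and 557 fell, while 28 of 3367 pseudogenes rose and 75 fell.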
